A study of Mus musculus with 3 samples.

Results

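Serpins are inhibitors of serine proteases that act by suicide: the protease cuts an exposed loop of the serpin, the loop springs into the body of the protein, and the protease is carried along and locked in a distorted form. The mouse family is divided into clades, named by the letter after "Serpin". Clade A holds secreted antitrypsin-like and antichymotrypsin-like proteins and hormone carriers, made largely in liver. Clade B holds serpins without a classical signal peptide, most of which stay inside the cell. Clades C to I hold the serpins of clotting, fibrinolysis, complement, collagen folding and the nervous system. Several members, among them Serpinh1, Serpinf1 and Serpina6, inhibit no protease.

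The serpin genes were taken by name from the array annotation, as probes for genes named Serpin followed by a clade letter from a to i and a number. The rule gave 65 probes for 50 gene names, of 41174 probes for 29273 names in all. The cells were EpH4-PR, clones of the normal mouse mammary epithelial line EpH4 that were selected with G418 after stable transfection with the progesterone receptor (PR, isoform PR-A). Total RNA came from cells grown in DMEM with 10% FBS to about 75% confluence and was measured on 3 two-colour Agilent arrays, always with the cells' RNA in Cy5 and, in Cy3, a purchased mouse standard whose makeup the labels do not give. There was no dye swap, and the arrays of the empty-vector line EpH4-EV were not analysed here, so a ratio compares EpH4-PR RNA with the reference RNA, carries any dye effect and measures no effect of PR. The labels number the arrays as replicates but do not say that they came from separate cultures, so p-values measure only the spread between these arrays.

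Serpin probes were dim in EpH4-PR RNA. A probe counted as well above background when the scanner software flagged it so. In the EpH4-PR channel 31 of the 65 serpin probes (47.7%), for 29 genes, were well above background on all 3 arrays, against 68.9% of all probes. In the reference channel 36 serpin probes (55.4%) were, against 69.3% of all probes. The serpin probes with the highest EpH4-PR intensities were those of Serpinh1, Serpinb6a, Serpinb6c and Serpinb5. Intensity also depends on the probe, so an order of probes by intensity is no order of mRNA levels. Serpinf1 and Serpinb1a had the probes of lowest ratio.

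The flag was lenient in the reference channel, where negative control spots (314 on each array) had a median of 119, 121 and 91.8 on arrays 1, 2 and 3 over a local background of 40, 43 and 39. A further limit was the 90th percentile of the negative control spots of the same array and channel. Above it on all arrays were 36 serpin probes (55.4%) in the EpH4-PR channel, 18 (27.7%) in the reference channel and 17 in both. The corresponding shares of all probes were 72.7% and 45.5%. The limit was stricter than the flag in the reference channel but not in EpH4-PR, where more probes passed it. Of the serpin probes that were well above background in the reference channel on all arrays, 18 did not pass this limit. Their ratios against the reference RNA are therefore ratios against a signal close to that of spots without a target.

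**Figure D1:**
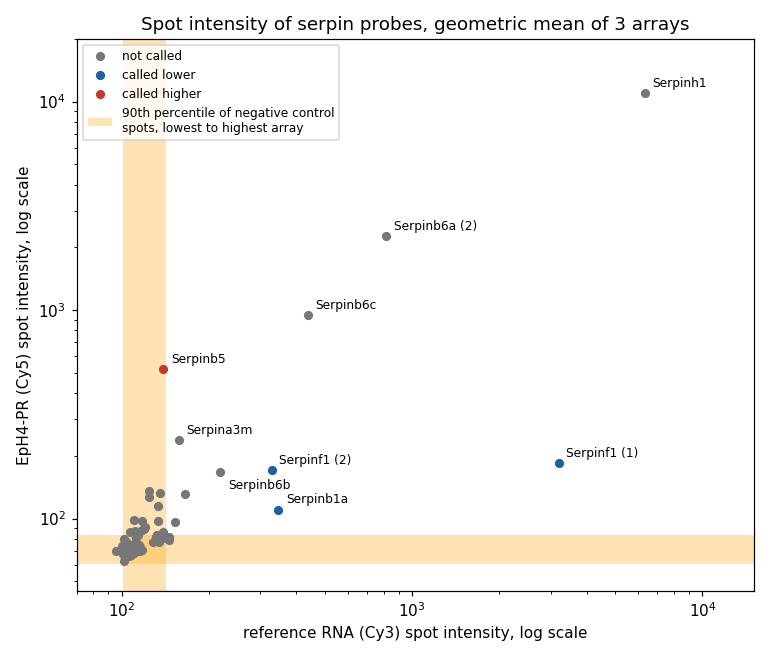
Spot intensity of the serpin probes described here in EpH4-PR RNA (Cy5, vertical log axis) against reference RNA (Cy3, horizontal log axis), each point the geometric mean of 3 arrays, with a band from the lowest to the highest of the 3 arrays' 90th percentiles of negative control spots. Most probes lie in or beside both bands, and Serpinh1 (10157 to 12965 in EpH4-PR) and Serpinb6a (2151 to 2358) are the brightest.

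The log2 ratio between EpH4-PR (Cy5) and the reference was computed after background correction and loess normalization within each array, and a probe was called by limma at a Benjamini-Hochberg adjusted p under 0.05 over all 41171 probes tested together with a mean log2 ratio no closer to 0 than 1. By this rule 1 of the 65 serpin probes was higher, where 2.26% of all probes were, and 4 were lower, where 3.83% of all probes were. These serpin shares are 1.54% and 6.15%, counts of 1 and 4 that are too small to read against the background. By the adjusted p alone, without the limit on size, 8 serpin probes (12.3%) were higher and 23 (35.4%) lower, where 25.7% and 24.6% of all probes were. The median log2 ratio of the serpin probes was -0.09, beside -0.01 for all probes. Pearson's r between arrays was computed over the 65 serpin probes, which are not independent replicates. It was 0.972 for arrays 1 and 2, 0.945 for arrays 1 and 3 and 0.963 for arrays 2 and 3. These values depend largely on probes far from 0, such as Serpinf1 at -5.53, and r was not computed without such probes. They do not show that smaller ratios repeated. Some of these changed sign between arrays, such as Serpini2 (-0.84, 0.09 and -0.29). Others did repeat, such as a Serpinb1b probe (-0.35, -0.34 and -0.36).

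**Figure D2:**
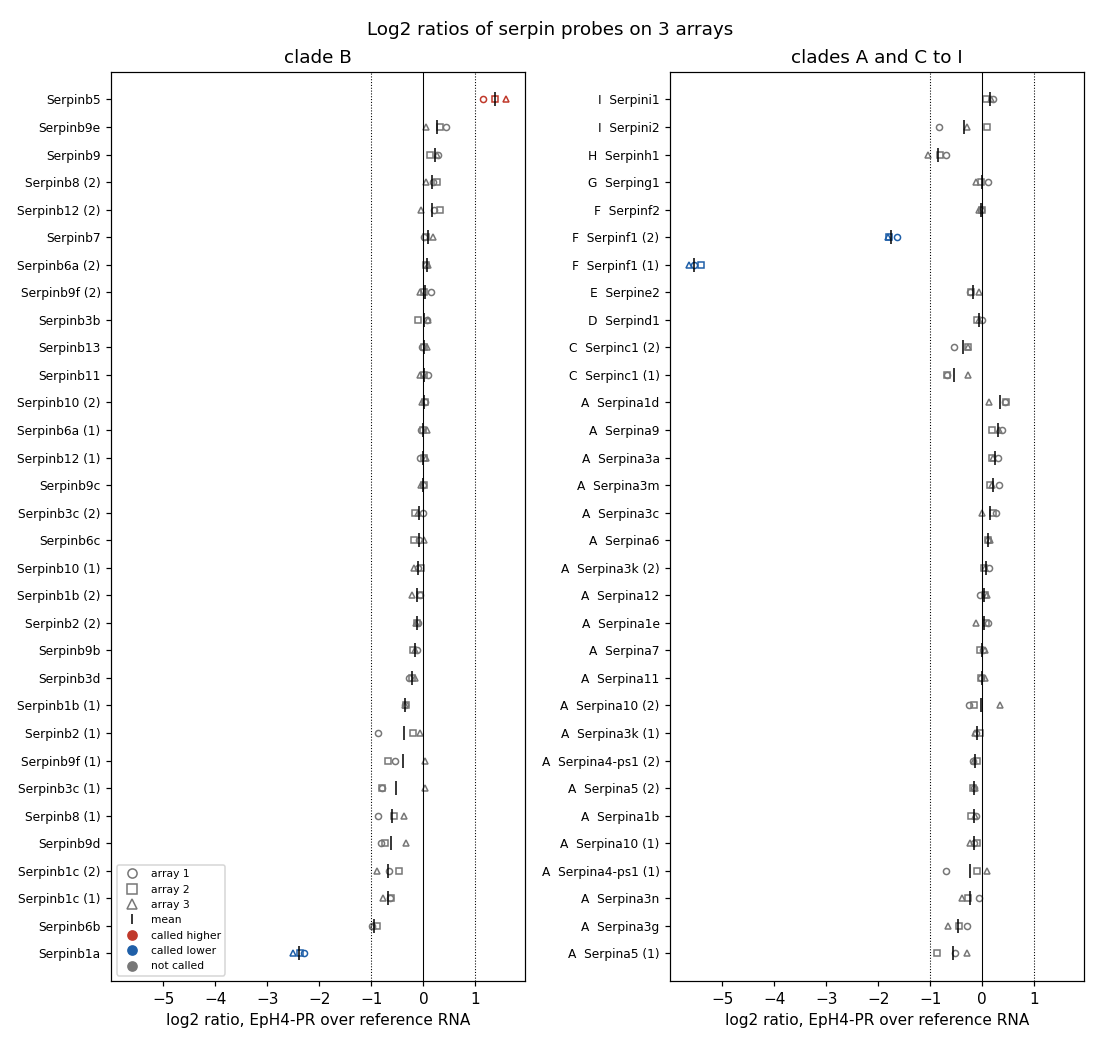
Log2 ratio of EpH4-PR to reference for each serpin probe described here on each of 3 arrays (open symbols) with the mean (bar), by clade. Dotted lines mark a ratio of 1 either way, and numbers in brackets order a gene's probes from the lowest ratio. Serpinb5 is the probe above the upper line, Serpinb1a and both Serpinf1 probes lie below the lower line on all arrays, and 51 means lie within 0.5 of 0.

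The promoters of 3 of these genes are shown because their probes span the range of the data: Serpinb5 was called higher, Serpinf1 had the lowest ratio, and Serpinh1 had the brightest spots. Each sequence is the 250 bases before the annotated start in RefSeq on GRCm38.p6, 5′ to 3′ in the direction of the gene. Capitals mark 4 motifs searched on both strands: TGTTCT (an arm of the progesterone response element), TATAAA (the TATA box), GGGCGG (the GC box) and CAGAC (the core of sites bound by Smads). An AGAACA match can share its last letters with CAGAC, and no other overlap was removed. The Serpinb5 window is chr1:106860925-106861174 (plus strand), the Serpinf1 window is chr11:75422624-75422873 (minus strand) and the Serpinh1 window is chr7:99353240-99353489 (minus strand).
Serpinb5: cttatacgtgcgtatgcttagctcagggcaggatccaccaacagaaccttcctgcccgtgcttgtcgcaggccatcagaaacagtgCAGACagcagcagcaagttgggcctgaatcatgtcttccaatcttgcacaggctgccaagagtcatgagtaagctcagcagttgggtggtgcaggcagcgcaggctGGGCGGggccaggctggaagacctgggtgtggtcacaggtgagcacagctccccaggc
Serpinf1: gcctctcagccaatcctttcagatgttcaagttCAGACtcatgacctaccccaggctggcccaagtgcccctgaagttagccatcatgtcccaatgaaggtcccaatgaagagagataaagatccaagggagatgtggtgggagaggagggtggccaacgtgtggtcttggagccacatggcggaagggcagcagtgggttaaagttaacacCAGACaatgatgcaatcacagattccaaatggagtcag
Serpinh1: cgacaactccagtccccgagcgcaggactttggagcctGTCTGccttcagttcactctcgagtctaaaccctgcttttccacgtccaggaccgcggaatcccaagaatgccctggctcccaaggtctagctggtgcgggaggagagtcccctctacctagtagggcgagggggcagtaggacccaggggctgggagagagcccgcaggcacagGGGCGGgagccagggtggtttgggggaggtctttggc

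The Serpinb5 window held a GC box whose first base lies 58 bases before the start and a CAGAC at 164 bases. The Serpinh1 window held a GC box at 37 bases and a CAGAC on the opposite strand at 212 bases. The Serpinf1 window held CAGAC at 217 and 38 bases and no GC box. TGTTCT and TATAAA were in none of the 3 windows. The GC content was 58.8% for Serpinb5, 63.6% for Serpinh1 and 51.6% for Serpinf1. RefSeq gave 47 promoters for 40 of the 50 serpin genes. Among them GGGCGG was in 7 (14.9%), those of Serpina12, Serpinb5, Serpinb6a, Serpinb6b, Serpinb6c, Serpine2 and Serpinh1, beside 32.7% of 32851 promoters in all. The genes of the brightest serpin probes in EpH4-PR RNA, Serpinh1, Serpinb6a, Serpinb6c and Serpinb5, were thus all among those with a GC box, but Serpine2 and Serpina12, which were not well above background in EpH4-PR on any array, were too. The share of GC boxes among bright probes of the whole array was not computed, and a link between motif and intensity was not tested. TGTTCT was in 13 serpin promoters (27.7%, beside 16.1% of all), TATAAA in 14 (29.8%, beside 12.4%) and CAGAC in 22 (46.8%, beside 42.2%). A match of letters is a description and no binding site.

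Clade B, the intracellular serpins, had 32 probes for 23 genes, of which 15 probes were well above background in EpH4-PR cells on all arrays. Serpinb5 encodes maspin, known from normal mammary epithelium. Its EpH4-PR intensity was 580, 483 and 500 on arrays 1, 2 and 3, against 175, 143 and 108 in the reference RNA. EpH4-PR was the higher channel on every array, and the log2 ratios were 1.14, 1.38 and 1.58, with a mean of 1.37 ± 0.22 (SD, n = 3; 2.58-fold; adjusted p = 0.000248, limma). This was the serpin probe called higher, and it ranked 356 from the highest of all probes. It remained called in every alternative processing, with a ratio from 1.26 to 2.43.

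Markers of cell type also differed between these RNAs. Of 9 probes for epithelial genes 8 were called higher (Cdh1, E-cadherin, by 4.29 and Krt7 by 3.99) and Krt19 was called lower, at -2.62. The summed raw intensity of the 9 probes was 94905 to 111059 in EpH4-PR and 11597 to 12530 in the reference RNA. Raw Cy5 and Cy3 intensities were not scaled to each other, so these sums and those below give no ratio between the RNAs. Of 15 probes for mesenchymal genes 7 were called lower, and their sum was 5000 to 5503 in EpH4-PR against 42956 to 48576 in the reference RNA. Of 10 blood probes 3 were called lower (sums of 1168 to 1442 and 2017 to 2401), of 9 basal probes 1 was higher, for Krt14, and 1 lower, and of 5 liver probes none was called (689 to 796 and 626 to 796). In RNA from a mixture, fewer cells of a type and less RNA per cell cannot be told apart, and the part of the reference RNA's makeup in the serpin ratios was not tested.

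Serpinb1a is an inhibitor of neutrophil elastase and related proteases of granulocytes. Its EpH4-PR intensity was 127, 116 and 91.9, against 373, 355 and 313 in the reference RNA. The reference RNA was the higher channel on all arrays without overlap, at log2 ratios of -2.29, -2.36 and -2.52 and a mean of -2.39 ± 0.11 (SD, n = 3; 5.24-fold lower; adjusted p = 2.17e-05, limma). The neighbouring paralogues Serpinb1b and Serpinb1c were also measured, and probes of such close relatives may share signal. Both Serpinb1c probes gave nearly the same ratio, -0.67 ± 0.21 and -0.68 ± 0.08 (SD, n = 3), and the Serpinb1b probes gave -0.35 ± 0.01 and -0.12 ± 0.09. Both Serpinb1c probes were called lower with a normexp offset of 0 (-1.58 and -1.62) and with the scanner log ratio (-2.08 and -2.13), and the first Serpinb1b probe with the latter (-1.47).

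The Serpinb6 genes encode cytosolic inhibitors of trypsin-like and granule proteases, and the probes of Serpinb6a and Serpinb6c were the brightest of clade B. Serpinb6a had EpH4-PR intensities of 2358, 2151 and 2301 and reference intensities of 848, 800 and 804, with log2 ratios of 0.05, 0.06 and 0.08 and a mean of 0.06 ± 0.02 (SD, n = 3). The ratio is close to 0 although the raw Cy5 signal is the higher, since loess sets each spot against others of the same brightness; with median centring in its place the ratio was 1.39 and the probe was called higher. A second Serpinb6a probe, from a different accession, was not well above background in either channel on any array. Serpinb6c had intensities of 1045, 853 and 941 against 481, 439 and 397. Its mean log2 ratio was -0.09 ± 0.10 (SD, n = 3) after loess and turned to 1.08 with median centring, where the probe was called higher. Serpinb6b had intensities of 171, 182 and 147 against 240, 231 and 189. Its log2 ratios of -0.998, -0.89 and -0.97 averaged -0.95 ± 0.06 (SD, n = 3), the lowest of the uncalled serpin probes and short of the limit of 1 on the mean. It was called lower with a normexp offset of 0 (-1.37) and with the scanner log ratio (-1.33), and moved to -0.35 with median centring.

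The Serpinb9 group, relatives of the granzyme B inhibitor, had 7 probes for 6 genes. Serpinb9, Serpinb9e, Serpinb9d and a Serpinb9f probe were well above background in EpH4-PR on all arrays, at ratios of 0.22 ± 0.09, 0.27 ± 0.20, -0.62 ± 0.26 and 0.03 ± 0.10 (SD, n = 3), and with median centring Serpinb9 and that Serpinb9f probe fell below 0, at -0.03 and -0.14. Serpinb9d alone of the group exceeded the negative control limit in both channels. The Serpinb9c probe was well above background in the reference RNA on all arrays and in EpH4-PR on 1, at -0.01 ± 0.03. The Serpinb9b probe was not well above background on any array in either channel. The accession of both Serpinb9f probes now belongs to Serpinb9g, and that of both Serpinb3c probes to Serpinb3a.

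The other clade B genes lay near the background. Serpinb7, Serpinb8, Serpinb10 and Serpinb11 each had a probe well above background in EpH4-PR on all arrays, at ratios of 0.08 ± 0.09, 0.17 ± 0.10, 0.01 ± 0.02 and 0.01 ± 0.08 (SD, n = 3), which all turned below 0 with median centring (-0.13, -0.02, -0.14 and -0.15). The second Serpinb8 probe, of the same accession, gave -0.61 ± 0.25, a difference of 0.77 within the gene. Serpinb2, a plasminogen activator inhibitor of macrophages and placenta, had probes at -0.12 ± 0.02 and -0.38 ± 0.44, and both were well above background in the reference RNA on all arrays and neither was in EpH4-PR. On array 1 the second of these read -0.88, against -0.19 and -0.07 on the others. No probe of Serpinb12, Serpinb13, Serpinb3b, Serpinb3c or Serpinb3d was well above background in EpH4-PR on all arrays, and their ratios ran from -0.52 to 0.16.

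Clade A had 21 probes for 17 genes and no calls, with ratios from -0.56 to 0.34. In EpH4-PR cells 8 of the probes were well above background on all arrays, and 1 of the 21, for Serpina3m, exceeded the negative control limit in both channels on all arrays. Serpina3m, of the antichymotrypsin-like group, had EpH4-PR intensities of 236, 239 and 237 and reference intensities of 162, 173 and 139, and its ratios of 0.32, 0.14 and 0.18 averaged 0.22 ± 0.10 (SD, n = 3). Others of that group were Serpina3a at 0.24 ± 0.06 and Serpina3g at -0.47 ± 0.18, both well above background in EpH4-PR on all arrays. Serpina3n and a Serpina3k probe were so only in the reference RNA, at -0.24 ± 0.16 and -0.10 ± 0.05, and Serpina3c in neither, at 0.16 ± 0.15 and at -0.09 with median centring.

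The antitrypsin genes Serpina1d and Serpina1e gave 0.34 ± 0.18 and 0.02 ± 0.12 (SD, n = 3), the second turning to -0.20 with median centring, and Serpina1b was not well above background in EpH4-PR on any array. Serpina9, known from germinal centre B cells, gave 0.30 ± 0.11. Serpina10, which inhibits coagulation factor X with protein Z, gave -0.03 ± 0.32, with arrays of either sign (-0.26, -0.16 and 0.33) and a ratio of 0.16 with median centring. The pseudogene Serpina4-ps1 gave -0.24 ± 0.41 at a probe whose arrays also differed in sign. Serpina5, the protein C inhibitor, had probes at -0.56 ± 0.29 and -0.16 ± 0.01, and the first was well above background in the reference RNA on all arrays and in EpH4-PR on 2. The carriers of corticosteroids and of thyroid hormone, Serpina6 and Serpina7, and Serpina11 and Serpina12 gave 0.12, 0.0012, -0.0023 and 0.03, all below 0 with median centring (-0.13, -0.24, -0.24 and -0.22), and none of them was well above background in EpH4-PR on all arrays.

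Serpine2, protease nexin 1, was not well above background in EpH4-PR on any array and in the reference RNA on 1, at -0.17 ± 0.09 (SD, n = 3). As for the other probes not flagged in EpH4-PR, this ratio is no measured difference.

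Serpinf1 encodes pigment epithelium-derived factor, a secreted serpin that inhibits no protease and is known to restrain blood vessel growth. Its first probe had EpH4-PR intensities of 191, 189 and 175 against 3265, 2992 and 3350 in the reference RNA. The log2 ratios of -5.55, -5.41 and -5.64 averaged -5.53 ± 0.11 (SD, n = 3; 46.3-fold lower; adjusted p = 1.16e-05, limma), and the probe ranked 2 from the lowest of all. The second probe, of the same accession, had intensities of 188, 172 and 154 against 343, 345 and 301 and a mean ratio of -1.75 ± 0.09 (SD, n = 3; 3.37-fold lower; adjusted p = 3.11e-05, limma). The probes had the same sign on every array but differed by 3.78 on the log2 scale, the widest gap within any of the 15 serpin genes with more than 1 probe. With median centring the first stayed called, at -4.32, and the second fell just short, at -0.99. Serpinf2, the plasmin inhibitor of blood plasma, gave -0.03 ± 0.03, which turned to 0.03 with median centring.

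Serpinh1 encodes the collagen chaperone of the endoplasmic reticulum. Its probe was the brightest of the serpin probes in both channels, with EpH4-PR intensities of 12965, 10209 and 10157 and reference intensities of 6497, 5843 and 6668. Its log2 ratios of -0.69, -0.82 and -1.04 averaged -0.85 ± 0.17 (SD, n = 3; adjusted p = 0.000677, limma), short of the limit on size. The direction depended on the scaling: with median centring the ratio was 0.66.

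**Figure D3:**
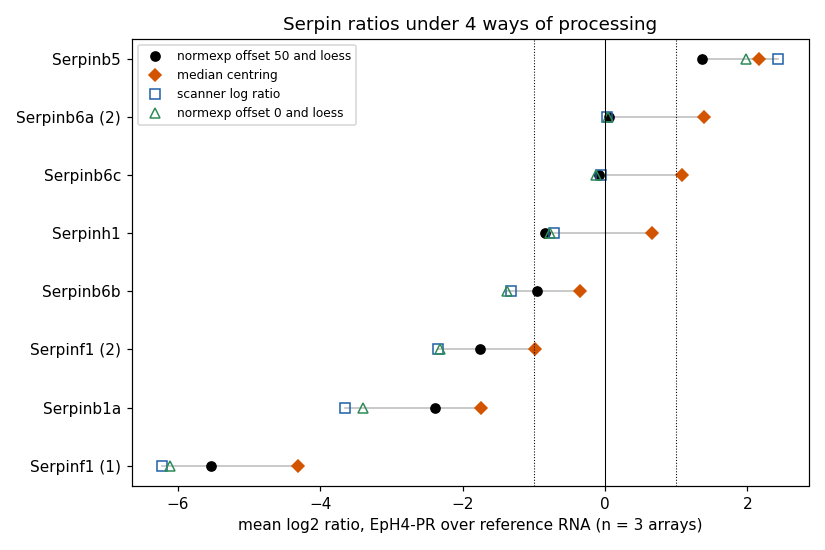
Mean log2 ratio over 3 arrays (horizontal axis) under 4 ways of processing, where dotted lines mark 1 either way. Shown are the called probes of Serpinb5, Serpinb1a and Serpinf1 and the uncalled probes of Serpinh1, Serpinb6b and Serpinb6c with the brighter Serpinb6a probe. Median centring moves every probe shown to the right of its loess value, takes the second Serpinf1 probe (-0.99) inside the lower line and carries Serpinh1 (0.66) and Serpinb6c (1.08) across 0.

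The serpins of clotting, complement and nerve were not called. Serpinc1, antithrombin, had both probes flagged well above background in each channel on all arrays, at -0.54 ± 0.23 and -0.37 ± 0.15 (SD, n = 3). Serpind1, heparin cofactor II, and Serping1, the inhibitor of complement C1, were not well above background in EpH4-PR on any array, at -0.06 ± 0.04 and -0.01 ± 0.11. Serpini1, neuroserpin, was well above background in both channels at 0.15 ± 0.07, and Serpini2, known from pancreas, on 1 EpH4-PR array at -0.35 ± 0.47.

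Of all serpin probes 21 were not well above background in EpH4-PR on any array, and their ratios ran from -0.24 to 0.03. A bound on the difference was computed for 12 of them. The reference was well above background on all arrays for 3 of the 12. There EpH4-PR read 1.07-fold lower at a Serpina3k probe, 1.09-fold lower at a Serpinb2 probe and 1.18-fold lower for Serpina3n. None of the 3 passed the negative control limit in the reference channel on all arrays. Each value sets the mean reference level against the higher of the probe's own signal and the lowest signal among probes well above background. Signals were normalized between channels, and the values are open to dye bias. For these 3 the probe's own signal was the higher (mean log2 6.09, 6.02 and 6.01, against lowest signals of 5.63 to 5.71). The values thus repeat the measured ratios and are no minimum differences. The 21 probes were not measured to be absent: the arrays cannot place them below that lowest signal.

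In the gene order of GRCm38.p6, 3 runs of neighbouring serpin genes held 38 of the current symbols behind these probes. The run from Serpina10 to Serpina3n had 18 probes on the array, with 7 well above background in EpH4-PR on all arrays and no call. The run from Serpinb5 to Serpinb8 had 16 probes, with 5 well above background and Serpinb5 as its call. The run from Serpinb1a to Serpinb6a had 16 probes, with 10 well above background and Serpinb1a as its call. The uncalled probes of the Serpinb5 and Serpinb1a runs had medians of -0.0073 and -0.12, and how far the called probe stood from them was not tested.

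The targets and partners of serpins were read from a list of 41 genes for proteases, receptors of serpin complexes and inhibitors of other families, which had 65 probes. Of these 7 were called higher, where 2.26% of all probes were, and 7 lower, where 3.83% were, shares of 10.8% each. The list was chosen with earlier results of these data known. The calls count probes, and Spint1, Tmprss2 and Plat entered them repeatedly. The shares are therefore a description, and whether such genes were called more often than others was not tested. The median ratio of the list was -0.05, and 45 of its probes were well above background in EpH4-PR on all arrays. With median centring 13 were higher and 4 lower.

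Plasminogen activation, the pathway that Serpine2, Serpinb2 and Serpinf2 restrain, was mixed. Urokinase, Plau, had probes at 0.40 ± 0.03 and 0.47 ± 0.04 (SD, n = 3), short of the limit. The first passed it with a normexp offset of 0 (1.17) and with the scanner log ratio (1.19), and the second with median centring (1.25). Its receptor Plaur gave 0.01 ± 0.09 and -0.06 ± 0.01; the first turned to -0.00089 with a normexp offset of 0 and the second to 1.02 with median centring. Tissue plasminogen activator, Plat, was lower at 2 probes, by ratios of -1.75 ± 0.09 and -1.12 ± 0.06, both short of the limit with median centring, at -0.86 and -0.85. The remaining Plat probe, of a different accession, was not well above background on any array. Plasminogen, Plg, was lower at 1 probe, at -3.22 ± 0.08, while the other, of the same accession, gave -0.17 ± 0.23. That other probe was near the background, flagged well above it on 1 array in EpH4-PR and on 2 in the reference RNA.

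The probes called higher were for 3 membrane or secreted serine proteases and 2 inhibitors. St14, matriptase, was called at 1.82 ± 0.13 (SD, n = 3) by a probe whose partner gave 0.29 ± 0.10. Its Kunitz-type inhibitor Spint1 was called at both probes, at 1.70 ± 0.49 and 1.80 ± 0.28, although the first lost its call with the methods' t-test after Benjamini-Hochberg adjustment (adjusted p = 0.0756), and Spint2 missed the limit, at 0.94 ± 0.05 and 0.63 ± 0.19. Tmprss2, another membrane serine protease, was called at both probes, at 1.54 ± 0.18 and 1.98 ± 0.16. In the reference RNA the second Spint1 probe was well above background on 2 arrays and the second Tmprss2 probe on 1. Neither passed the negative control limit there on any array, so the size of their ratios is uncertain. Their ratios were 3.95 and 3.48 with a normexp offset of 0, and 3.92 and 4.72 with the scanner log ratio. The secreted protease Htra1 had a ratio of 1.54 ± 0.0043 and Wfdc2, of the whey acidic protein family, 3.35 ± 0.09, the highest of the list.

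The other probes called lower were for 3 lysosomal cysteine proteases and an inhibitor of such proteases. Ctsk, cathepsin K, was not called and was not well above background in EpH4-PR on any array. Its ratio was -0.23 ± 0.09 (SD, n = 3), or 1.17-fold lower. Its EpH4-PR signal (mean log2 6.12) was above the lowest measurable ones (5.63 to 5.71), so this value is no minimum difference. Its reference signal passed the negative control limit on 1 array. Ctss, cathepsin S, was at -5.05 ± 0.13 (SD, n = 3), Ctsb, cathepsin B, at -2.35 ± 0.02 with a second probe at -0.45 ± 0.10, and Ctsl, cathepsin L, at -1.50 ± 0.05. With median centring Ctsb fell short of the limit, at -0.93, and Ctsl turned to 0.07. The secreted cystatin Cst3 was at -2.56 ± 0.03 and stayed called, at -1.15.

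**Figure D4:**
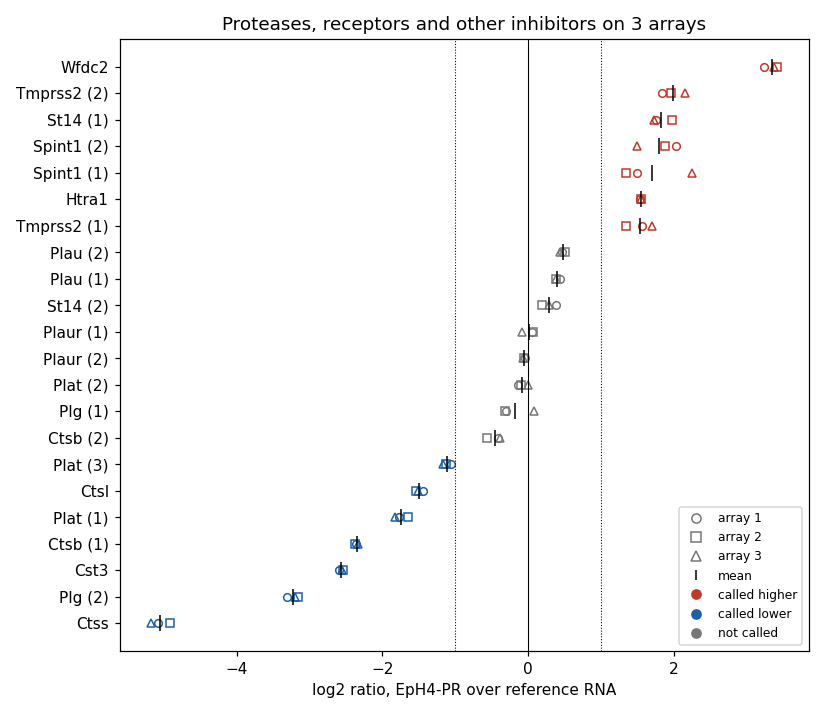
Log2 ratio of EpH4-PR to reference on each of 3 arrays (open symbols) with the mean (bar) for the probes of called genes of the protease and inhibitor list and of Plau and Plaur, where dotted lines mark 1 either way, and numbers in brackets count a gene's probes. The 7 probes called higher run from 1.54 to 3.35 and the 7 called lower from -5.05 to -1.12; Plat, Ctsb and Ctsl lose their call with median centring, where Ctsl turns to 0.07.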

How the data were processed

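Total RNA of EpH4-PR cells was hybridised on 3 arrays against a common reference RNA. The authors deposited the output of Agilent Feature Extraction 8.1.1.1, which gives for each of 43790 spots the mean and median intensity and the local background intensity in both channels, flags, and the log10 ratio of its red to its green channel after the software's own background and dye correction. They also deposited a table of fold changes with p-values between unnamed sides, which was not used here.

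Mean intensities were corrected with normexp (offset 50) and loess within each array in limma 3.58.1 (R 4.3.3). Control spots and outlier spots (150, 18 and 3; no serpin spot) were left out, and spots of a probe were averaged. Each log2 ratio was set against 0 by lmFit and eBayes over 41171 probes, with Benjamini-Hochberg adjustment. In simulated data for this comparison, 86.5% of 200 probes changed by 1.5 log2 units were called, with 0 false calls. Unchanged probes were simulated around 0 with each probe's own spread between arrays, so they could hardly reach the limit on size. The simulation held no dye bias or scaling error, and its false calls say nothing about these. The 3 arrays were on 3 slides with 1 scan day, and their number limits the precision. The median SD was 0.09 over 25721 probes well above background in both channels and 0.11 over the 27 such serpin probes.

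Named were serpin probes well above background on all arrays in either channel, called probes, and the called probes of the protease list with Plau, Plat and Plaur; other serpins were given by name or range, some with their values. Serpin members, lists and tests were chosen with earlier results of these data known. Current symbols came from a RefSeq gene table of GRCm38.p6, which matched 58 of the 65 serpin probes. Promoters were searched with Python 3.11.15. Alternatives covered background correction, the scanner log ratio, centring, scaling, filters, outliers, spot summary, replicates, variance model, test and call rule. 1 probe that enters the counts is not reported here.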

Additional observations from a re-analysis of the deposited data

How the results depend on the processing

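The called probes of Serpinb5, Serpinb1a and Serpinf1 kept direction and call under every alternative run, except that median centring in place of loess ended the call of the second Serpinf1 probe (-0.99). Serpin calls (higher and lower, 1 and 4) became 2 and 12 with a normexp offset of 0, 2 and 13 with the scanner log ratio, 3 and 2 with median centring and 8 and 23 by adjusted p alone. Calls among all probes (932 and 1578) became 3125 and 3905, 3616 and 3887, 7031 and 708, and 10569 and 10122 in the same order, and the share of higher calls went from 37.1% to 90.9% with median centring (serpins, 20% to 60%). Calls of the protease list (7 and 7) became 12 and 14 with offset 0 and with the scanner log ratio, and 13 and 4 with median centring. The count of 31 serpin probes well above background was 31 to 36 with an array left out, and 36 on at least 2 arrays or against the negative controls.

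Of the probes named by rule, uncalled ones changed sign as follows, on the log2 scale. With median centring these were Serpinb8 (-0.025), Serpinb9 (-0.030), Serpina6 (-0.13), Serpinb7 (-0.13), Serpinb9f (-0.14), Serpinb10 (-0.14), Serpinb11 (-0.15), Serpina1e (-0.20), Serpinf2 (0.027), Serpina10 (0.16), Serpinh1 (0.66), Serpinb6c (1.08) and Plaur (1.02), and the called Ctsl (0.067). With the scanner log ratio these were Serpinb11 (-0.037), Serpinb9f (-0.053), Serpina6 (-0.22), Serpina1e (-0.28), Serpinf2 (0.076) and Serpina10 (0.62). With offset 0 these were Plaur (-0.00089) and Serpina10 (0.060), and with the median spot intensity Serpinb11 (-0.0097) and Serpinb10 (-0.024). With an array left out, ratios ran from -0.21 to 0.085 for Serpina10, -0.022 to 0.094 for Serpina1e, -0.025 to 0.077 for Serpinb9f, -0.030 to 0.050 for Serpinb11 and -0.018 to 0.060 for Plaur. With the remaining serpin probes included, 7 more turned with median centring (Serpina12, Serpina3c, Serpina3k, Serpina7, Serpinb12, Serpinb13 and Serpinb3b, to between -0.24 and -0.06), 4 with the scanner log ratio (Serpina11, Serpina3k, Serpinb12 and Serpinb13) and 3 with offset 0 (Serpina11, Serpinb12 and Serpinb6a). Some uncalled serpin probes named by rule became called. With both offset 0 and the scanner log ratio these were probes of Serpina3g, Serpina5, Serpinb1c, Serpinb6b, Serpinb8 and Serpinb9d. With offset 0 alone it was that of Serpinb9, and with the scanner log ratio alone those of Serpinb1b, Serpinc1 and Serpini1. With median centring they were those of Serpinb6a and Serpinb6c, both called higher. The methods' t-test after Benjamini-Hochberg adjustment left 6 probes of the protease list higher, without a Spint1 probe. The cause of these changes was not tested. The filter on negative controls was chosen after seeing the data and left serpin and list calls at 1 and 4 and at 7 and 7. No paired analysis was possible because there is 1 group.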

Other observations

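Some array features outside the naming rule also relate to serpins, and they were chosen after their annotation was seen. By accession, a probe named LOC381286 belongs to Serpinb3c and one named A030003A19Rik to Serpina3b, with log2 ratios of -0.14 ± 0.12 and 0.13 ± 0.18 (SD, n = 3). By description, 7 further probes were serpin-like. They include LOC385069 at 0.24 ± 0.14 and LOC193403, similar to Serpinb6c, at -0.08 ± 0.06. None of these probes was called.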
